A study of Mus musculus with 6 samples.

Results

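Macrophages clear dying cells through receptors that recognise phosphatidylserine, a lipid that moves to the outer face of the membrane during apoptosis. The genes described here are 10 members of that pathway, chosen by symbol from the 21399 genes listed in each library. They are the TAM receptor tyrosine kinases Axl, Mertk and Tyro3, their ligands Gas6 and Pros1, the phosphatidylserine receptors Timd4 and Stab1, the bridging protein Mfge8, the engulfment receptor Lrp1 and the engulfment adaptor Elmo1. All 10 were found in every library.

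The TAM receptors do not bind phosphatidylserine themselves. Gas6, which binds all the TAM receptors, and protein S, the product of Pros1, which acts through Mertk and Tyro3, hold the lipid at one end and the receptor at the other. Mertk is best known for the quiet uptake of apoptotic cells by resident macrophages, and Axl for uptake during inflammation and for damping cytokine signalling. TIM-4, the product of Timd4, tethers dying cells and marks long-lived resident macrophages, including those of the peritoneum.

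The series holds 6 mouse RNA-seq libraries, 3 labelled WT and 3 labelled KO. Primary microglia of CD45.2 WT or KO mice went through OGD (oxygen and glucose deprivation, a culture model of ischaemia) and reoxygenation, and peritoneal macrophages of CD45.1 mice were added to both groups during reoxygenation. Only the microglia differed in genotype, and the labels give neither the KO allele, the age of the mice, the length of each step nor a separate culture for each of the 3 libraries. The spread that p-values measure here is that of libraries and may be technical. The design text calls the sequenced cells CD45.1-positive microglia although it gives CD45.1 to the added macrophages, and each sample's source names both cell types.

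Read totals recovered from the deposited values lay between 34542822 and 38092819 per library. Ppara, the gene named by the series title, had 1 to 11 reads in the WT-labelled and 10 to 23 in the KO-labelled libraries (exact two-sided permutation p = 0.2), so it was not lower under the KO label, and the groups are called WT-labelled and KO-labelled throughout. Which part of the gene the KO allele lacks is not given, so a level over the whole gene is at best a partial check. The CD45.1 macrophages were added to both groups, so if they were the cells sequenced, no difference in genotype could show. With so few reads as well, the Ppara level cannot decide whether the labels are right. The summed level of 10 macrophage core genes, such as Adgre1 and Csf1r, ran from 1255 to 3626 FPKM in the WT-labelled and from 4625 to 10698 FPKM in the KO-labelled libraries. Most of this sum was Lyz2 in every library, at 979 to 2947 FPKM in the WT-labelled and 3548 to 8717 FPKM in the KO-labelled ones. FPKM is a fragment count scaled by transcript length and library size, so levels of different genes can be compared. The 9 listed B cell markers summed to 4779 to 5452 FPKM and 4242 to 4587 FPKM in the same order. The defining microglial genes were at or near 0, with at most 1.09 FPKM for P2ry12 and 0.152 FPKM for Sall1, and Sall1 listed at 0 in 3 libraries. In such mixed samples, fewer cells of a type and less RNA per cell cannot be told apart.

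None of the 10 genes passed the test between KO-labelled and WT-labelled libraries (limma, adjusted p from 0.076 to 1.00 over the 10 members), nor by limma's voom on recovered reads, while 5 were higher and 0 lower at an unadjusted p under 0.05, which 8.86% and 8.2% of all genes tested reached in these directions. Over all 10734 genes tested, 0.0279% passed, all of them higher in the KO-labelled libraries. The values nevertheless fell into separate patterns. Mertk, Pros1, Timd4, Stab1 and Lrp1 had every KO-labelled library above every WT-labelled one, 5 of 10 members, where 9.74% of all genes tested did so. Tyro3 alone lay below in every KO-labelled library, 1 of 10, where 15.2% of all genes did so. Axl, Gas6, Mfge8 and Elmo1 overlapped. The members were chosen with earlier results of these data known, so these counts are a description and not independent evidence. The median difference over the 10 was 0.62 on the log2(FPKM + 1) scale, beside -0.06 over all genes tested. Tyro3 and Gas6 lay under the filter of a mean of 1 FPKM and were added to the fit, and Timd4 passed that filter through the KO-labelled libraries.

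**Figure D1:**
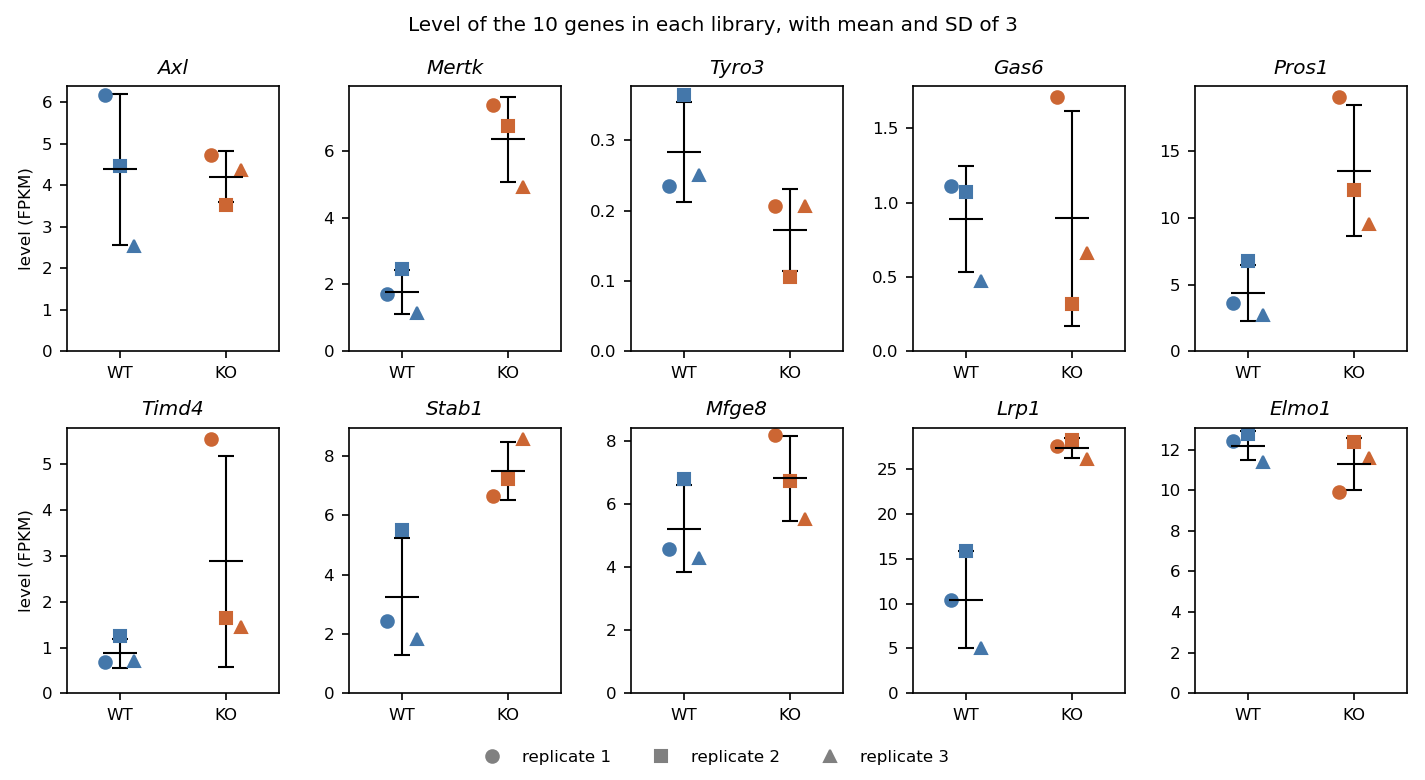
Level in FPKM (vertical axes, from 0, a separate scale for each gene) of the 10 genes in each library by group, with 1 point per library, its shape giving the replicate number, and bars for the mean and SD of 3. Mertk, Pros1, Timd4, Stab1 and Lrp1 have all 3 KO-labelled points above the WT-labelled ones, and Axl, Gas6, Mfge8 and Elmo1 overlap.

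The DNA before the start sites of 4 members is shown because Mertk and Axl are the receptors whose order differed between the groups, and Stab1 and Timd4 are the phosphatidylserine receptors among the members. Each is the 250 bases before the RefSeq start on the gene's own strand in GRCm38.p6, with matches to the searched motifs in capitals. Mertk lies on the plus strand (chr2:128698665-128698914), Axl on the minus strand (chr7:25788734-25788983), Stab1 on the minus strand (chr14:31168642-31168891) and Timd4 on the plus strand (chr11:46810549-46810798).
Mertk: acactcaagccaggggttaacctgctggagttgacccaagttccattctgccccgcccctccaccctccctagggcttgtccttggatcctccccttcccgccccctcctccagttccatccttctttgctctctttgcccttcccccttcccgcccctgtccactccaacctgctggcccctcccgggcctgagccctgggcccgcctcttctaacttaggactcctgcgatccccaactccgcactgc
Axl: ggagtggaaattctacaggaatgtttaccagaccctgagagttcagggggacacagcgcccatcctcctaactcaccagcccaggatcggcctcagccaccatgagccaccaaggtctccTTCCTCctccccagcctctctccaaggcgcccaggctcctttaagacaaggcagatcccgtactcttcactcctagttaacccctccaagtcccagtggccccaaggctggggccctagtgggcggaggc
Stab1: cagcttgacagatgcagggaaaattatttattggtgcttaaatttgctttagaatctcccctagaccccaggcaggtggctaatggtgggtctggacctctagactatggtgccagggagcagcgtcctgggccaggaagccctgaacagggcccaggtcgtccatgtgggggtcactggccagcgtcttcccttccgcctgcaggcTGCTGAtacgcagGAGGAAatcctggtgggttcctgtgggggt
Timd4: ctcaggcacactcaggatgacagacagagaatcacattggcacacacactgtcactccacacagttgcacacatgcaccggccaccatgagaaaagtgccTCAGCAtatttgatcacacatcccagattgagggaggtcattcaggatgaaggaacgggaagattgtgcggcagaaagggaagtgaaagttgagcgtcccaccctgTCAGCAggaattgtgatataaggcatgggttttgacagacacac
The capitals in Axl are a match to GAGGAA, the core bound by the myeloid factor PU.1, on the other strand, beginning 130 bases before the start. In Stab1 they are GAGGAA at 30 bases and TGCTGA, part of the site of MAF factors, at 43 bases, and in Timd4 they are TGCTGA on the other strand at 44 and 150 bases. The Mertk stretch held no match to any motif searched.

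All 10 members matched the RefSeq promoter table, with 11 start sites in all, since Elmo1 has a pair. GAGGAA occurred in 3 of the 11 (Axl, Mfge8 and Stab1) and in 23.3% of all 32851 stretches of the same length, and TGCTGA in 2 of the 11 and in 16.1%. No member's stretch held the nuclear receptor repeats, AGGTCA in tandem with 1 or 4 bases between, found in 0.0335% and 0.0152% of all stretches, nor the AP-1 motif TGANTCA (6.75%), the GATA motif AGATAA (9.99%) or the IRF motif, GAAA in tandem with 2 bases between (2.98%). Both strands were searched and none of the motifs contains another. The GC content was 63.6% for Mertk, 60.0% for Axl and 57.2% for Stab1, above the median of 52.4% over all stretches, and below that median for Timd4. A match says only that these letters are present.

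Among the TAM receptors, Mertk differed most between the groups, Axl stood at like levels in both, and Tyro3 was close to the detection limit. Mertk is a plus-strand gene at chr2:128698956-128802894 of mm10, the build of all gene positions here. Its level was 1.71, 2.48 and 1.15 FPKM in WT-labelled replicates 1 to 3 and 7.36, 6.73 and 4.92 FPKM in KO-labelled replicates 1 to 3. The lowest KO-labelled value was thus well above the highest WT-labelled one, which belonged to replicate 2. The means were 1.78 ± 0.667 and 6.34 ± 1.27 FPKM (SD, n = 3), a ratio of 3.57, and the log2(FPKM + 1) difference was 1.41 (SE 0.20, 95% interval 0.94 to 1.88, limma adjusted p = 0.076). These values rest on 295 to 2085 reads per library. By its moderated t, Mertk ranked 21st from the top of all genes tested. Without WT-labelled replicate 2, the difference was 1.59 with a limma adjusted p = 0.0097. With array weights it was 1.49 with a limma adjusted p = 0.0089. The weights, the same for every gene, were lowest for WT-labelled replicate 2 at 0.313 and highest for KO-labelled replicate 2 at 4.95. Weighted results thus lean on KO-labelled replicate 2, since KO-labelled replicates 1 and 3 had weights of 0.493 and 1.65. Without WT-labelled replicate 2, 500 genes were called higher and 38 lower in all, and leaving out any other single library gave Mertk differences of 1.24 to 1.56 with limma adjusted p from 0.11 to 0.30. An antisense gene, Gm14011, overlaps Mertk, and without a stated strand setting its reads cannot be told apart from those of Mertk.

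Axl (chr7:25757273-25788705, minus strand) stood at 6.16, 4.46 and 2.53 FPKM in WT-labelled replicates 1 to 3. It stood at 4.72, 3.53 and 4.36 FPKM in KO-labelled replicates 1 to 3, within the WT-labelled range. The means were 4.38 ± 1.82 and 4.20 ± 0.613 FPKM (SD, n = 3). The log2(FPKM + 1) difference was 0.00, and its 95% interval of -0.57 to 0.57 still allows moderate differences either way (limma adjusted p = 1.00). Its sign turned under 5 of the alternative settings and under removal of single libraries.

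Tyro3 (chr2:119797733-119818104, plus strand) was read 43, 68 and 44 times in WT-labelled replicates 1 to 3 and 40, 20 and 37 times in KO-labelled replicates 1 to 3. This corresponded to 0.235, 0.364 and 0.251 FPKM and to 0.207, 0.106 and 0.206 FPKM. All KO-labelled values lay below the WT-labelled ones, though the highest KO-labelled count of 40 reads was close to the lowest WT-labelled count of 43. The log2(FPKM + 1) difference was -0.13 (SE 0.12, limma adjusted p = 0.60). The added 1 FPKM flattens so low a gene, and voom with limma, run on recovered reads, gave -0.74 on the log2 scale with an adjusted p = 0.34.

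The order of the TAM receptors was not the same in the groups, in ratios that were chosen after the data were seen. Axl was the most abundant TAM receptor in each WT-labelled library and Mertk in each KO-labelled library, with Tyro3 last in all 6. Mertk held 21.0%, 33.9% and 29.2% of the summed TAM receptor FPKM in WT-labelled replicates 1 to 3 and 59.9%, 64.9% and 51.9% in KO-labelled replicates 1 to 3. The log2 ratio of Mertk to Axl was -1.28 ± 0.52 in the WT-labelled and 0.58 ± 0.38 in the KO-labelled libraries (SD, n = 3), a difference of 1.86. This ratio is taken within a library, so scaling a library by a common factor leaves it as it is. The groups did not overlap, and an exact two-sided permutation test gave p = 0.1, the smallest that 3 against 3 allows, and 0.1 after adjustment over the 5 ratios and sums of this kind, so the difference cannot pass a threshold of 0.05 in this design. Leaving out single libraries moved the difference between 1.58 and 2.08. The summed TAM receptor level was 6.44 ± 2.21 FPKM in the WT-labelled and 10.7 ± 1.44 FPKM in the KO-labelled libraries (exact two-sided permutation p = 0.1, n = 3 each).

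**Figure D2:**
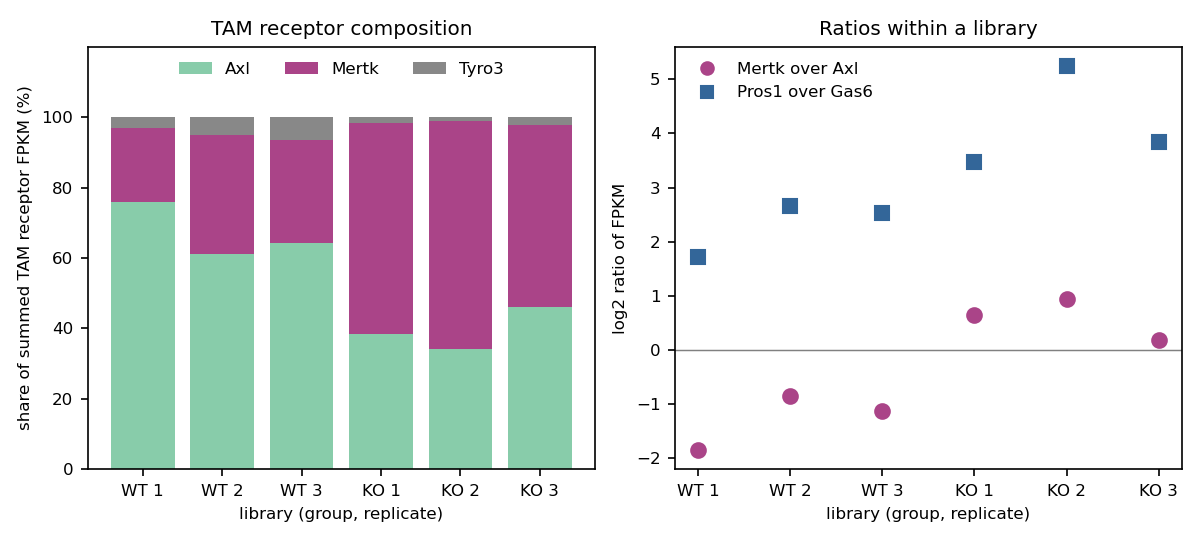
Left, share in percent of the summed FPKM of Axl, Mertk and Tyro3 in each library. Right, log2 ratio of FPKM of Mertk over Axl (circles) and of Pros1 over Gas6 (squares) in each library, where 0 marks equal levels. Mertk lies below Axl in the 3 WT-labelled libraries and above it in the 3 KO-labelled ones.

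The ligands showed the same kind of split. Pros1 (chr16:62854307-62929346, plus strand) encodes protein S, which is also a cofactor in the control of clotting. It stood at 3.66, 6.77 and 2.76 FPKM in WT-labelled replicates 1 to 3 and at 19.1, 12.1 and 9.52 FPKM in KO-labelled replicates 1 to 3. The KO-labelled libraries spread widely, but the lowest of them exceeded the highest WT-labelled one. The means were 4.40 ± 2.11 and 13.6 ± 4.94 FPKM (SD, n = 3), a ratio of 3.08, with a log2(FPKM + 1) difference of 1.45 (SE 0.31, limma adjusted p = 0.11). It was 1.75 with a limma adjusted p = 0.016 without WT-labelled replicate 2, and 1.46 with a limma adjusted p = 0.014 with array weights. Leaving out any other single library gave 1.19 to 1.66 with limma adjusted p from 0.14 to 0.35, the lowest difference without KO-labelled replicate 1.

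Gas6 (chr8:13465374-13494490, minus strand) was the lesser ligand throughout. It stood at 1.11, 1.07 and 0.477 FPKM in WT-labelled replicates 1 to 3 and at 1.71, 0.319 and 0.662 FPKM in KO-labelled replicates 1 to 3, on 31 to 170 reads. KO-labelled replicate 1 was the highest and replicate 2 the lowest of all 6 libraries. The log2(FPKM + 1) difference was -0.04 with a 95% interval of -0.68 to 0.60 (limma adjusted p = 0.95), and its sign turned when single libraries were left out. Gas6 overlaps the protein-coding gene Tmem255b on the other strand. The 8 fibroblast and mesothelial markers, genes of other cells that can make Gas6, summed to between 0.902 and 21.6 FPKM in the WT-labelled and between 3.28 and 34.9 FPKM in the KO-labelled libraries, and their part in the Gas6 values was not tested.

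Pros1 exceeded Gas6 in every library, by 3.29, 6.31 and 5.78 times in WT-labelled replicates 1 to 3 and by 11.2, 37.9 and 14.4 times in KO-labelled replicates 1 to 3. The log2 ratio was 2.30 ± 0.51 and 4.19 ± 0.93 (SD, n = 3), with groups that did not overlap and an exact two-sided permutation p = 0.1, the smallest possible (0.1 after adjustment over the 5 ratios and sums). Leaving out single libraries moved the difference of 1.89 between 1.36 and 2.24. Pros1 was thus the more abundant TAM ligand in both groups.

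Both phosphatidylserine receptors had KO-labelled values above all WT-labelled ones. Timd4 (chr11:46810800-46844332, plus strand) stood at 0.687, 1.24 and 0.705 FPKM in WT-labelled replicates 1 to 3. It stood at 5.54, 1.64 and 1.45 FPKM in KO-labelled replicates 1 to 3, so that replicate 1 was far above the other two, which were just above the highest WT-labelled library. The log2(FPKM + 1) difference was 0.90 (SE 0.36, limma adjusted p = 0.26), and it was 0.45 without KO-labelled replicate 1. Reads ran from 56 to 485 per library.

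Stab1 (chr14:31139013-31168641, minus strand) encodes stabilin-1, a large scavenger receptor that also takes up modified lipoproteins. It stood at 2.44, 5.51 and 1.83 FPKM in WT-labelled replicates 1 to 3 and at 6.65, 7.23 and 8.57 FPKM in KO-labelled replicates 1 to 3. WT-labelled replicate 2 lay nearer to the KO-labelled libraries than to its own group. The means were 3.26 ± 1.97 and 7.48 ± 0.984 FPKM (SD, n = 3), a ratio of 2.30, with a log2(FPKM + 1) difference of 1.08 (SE 0.29, limma adjusted p = 0.14). Without that replicate it was 1.44 with a limma adjusted p = 0.0084, and with array weights 1.26 with a limma adjusted p = 0.013. Leaving out any other single library gave 0.84 to 1.15 with limma adjusted p from 0.25 to 0.39, the lowest difference without WT-labelled replicate 3. Stab1 overlaps Nt5dc2, a protein-coding gene on the other strand. The order of the KO-labelled replicates also differed between these receptors, with replicate 1 highest for Timd4 and lowest for Stab1.

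Mfge8, which encodes a secreted protein that links phosphatidylserine to integrins of the macrophage surface, lies at chr7:79133768-79149060, minus strand. It stood at 4.57, 6.80 and 4.28 FPKM in WT-labelled replicates 1 to 3 and at 8.20, 6.75 and 5.52 FPKM in KO-labelled replicates 1 to 3. The groups overlapped, and the log2(FPKM + 1) difference of 0.34 had a 95% interval of -0.09 to 0.77 (limma adjusted p = 0.40).

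Lrp1, a very large endocytic receptor that binds calreticulin on dying cells, lies at chr10:127538161-127621148, minus strand, and overlaps the antisense gene Gm16217. It was the most deeply read of the 10, with 2667 to 15961 reads per library. Its level was 10.4, 15.8 and 5.08 FPKM in WT-labelled replicates 1 to 3 and 27.6, 28.2 and 26.1 FPKM in KO-labelled replicates 1 to 3. The KO-labelled libraries lay close together and the WT-labelled ones spread about 3-fold. The log2(FPKM + 1) difference was 1.43 (SE 0.32, limma adjusted p = 0.12). It was 1.77 with a limma adjusted p = 0.012 without WT-labelled replicate 2, and 1.55 with a limma adjusted p = 0.012 with array weights. Leaving out any other single library gave 1.03 to 1.48 with limma adjusted p from 0.16 to 0.37, the lowest difference without WT-labelled replicate 3.

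Elmo1, an adaptor that works with DOCK proteins to activate the small GTPase Rac behind the receptors, lies at chr13:20090596-20608353, plus strand. It stood at 12.4, 12.8 and 11.4 FPKM in WT-labelled replicates 1 to 3 and at 9.92, 12.4 and 11.6 FPKM in KO-labelled replicates 1 to 3. These were the most even values of the 10, and the groups overlapped. The log2(FPKM + 1) difference was -0.11, with a 95% interval of -0.34 to 0.13 (limma adjusted p = 0.62). Elmo1 overlaps 4 noncoding genes, 1 of them on the other strand.

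By mean level, the WT-labelled libraries had Elmo1 first at 12.2 ± 0.713 FPKM, followed by Lrp1 at 10.4 ± 5.37 FPKM, which does not differ from it beyond the spread. Mfge8, Pros1, Axl and Stab1 came next between 5.22 and 3.26 FPKM with overlapping values, then Mertk, and Gas6 and Timd4 at 0.888 and 0.878 FPKM, with Tyro3 last. In the KO-labelled libraries Lrp1 came first at 27.3 ± 1.06 FPKM, followed by Pros1 at 13.6 ± 4.94 FPKM and Elmo1 at 11.3 ± 1.26 FPKM, which overlapped. Stab1, Mfge8 and Mertk lay between 7.48 and 6.34 FPKM and did not differ beyond their spread, and Axl, Timd4, Gas6 and Tyro3 followed. Mertk thus stood below Axl in the first order and above it in the second, as in each library, whereas Pros1 exceeded Elmo1 in KO-labelled replicate 1 only.

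Mertk, Pros1 and Lrp1 differed by nearly as much as macrophage genes in general. The mean log2(FPKM + 1) of the 10 macrophage core genes was 5.68, 6.50 and 5.06 in WT-labelled replicates 1 to 3 and 7.88, 7.24 and 6.97 in KO-labelled replicates 1 to 3. Its difference was 1.62 (exact two-sided permutation p = 0.1, n = 3 each), from 1.20 for the Fc receptor gene Fcgr1 to 2.03 for the lipopolysaccharide co-receptor gene Cd14. WT-labelled replicate 2 was the highest of its group in this mean, as it was for all members but Axl and Gas6.

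Each member's log2(FPKM + 1) minus that mean asks how far it kept step. For Mertk, Pros1 and Lrp1 the difference between KO-labelled and WT-labelled libraries was then -0.20, -0.17 and -0.19, with groups that overlapped (exact two-sided permutation p = 0.4, 0.2 and 0.8, n = 3 each). For Stab1 and Timd4 it was -0.53 and -0.71, also with overlap (exact two-sided permutation p = 0.3 and 0.2). For Axl, Tyro3, Gas6, Mfge8 and Elmo1 it lay between -1.28 and -1.75. Since the subtracted mean itself differed by 1.62 without overlap, a gene with even levels comes out near -1.62 by construction, and the added 1 FPKM holds Tyro3 and Gas6 there, so these values are no further evidence on those 5 genes. The pseudocount set how far the other members kept step. With 0.1, Mertk turned to 0.17 and Timd4 moved to -0.26. With 5, Mertk moved to -0.76, Pros1 to -0.53, Stab1 to -0.88 and Timd4 to -1.11 (exact two-sided permutation p = 0.1 each, the smallest possible), and Lrp1 to -0.37 (exact p = 0.2). With the macrophage mean as a covariate, the difference was 0.64 for Mertk, 0.12 for Pros1, 0.27 for Stab1, 0.25 for Lrp1 and -0.20 for Timd4, with limma adjusted p from 0.42 to 0.89 over these 5, although the covariate itself separates the groups. The B cell markers, at 4242 to 4587 FPKM in the KO-labelled against 4779 to 5452 FPKM in the WT-labelled libraries, moved the other way, and their part in the values of Elmo1, which lymphocytes also express, was not tested.

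**Figure D3:**
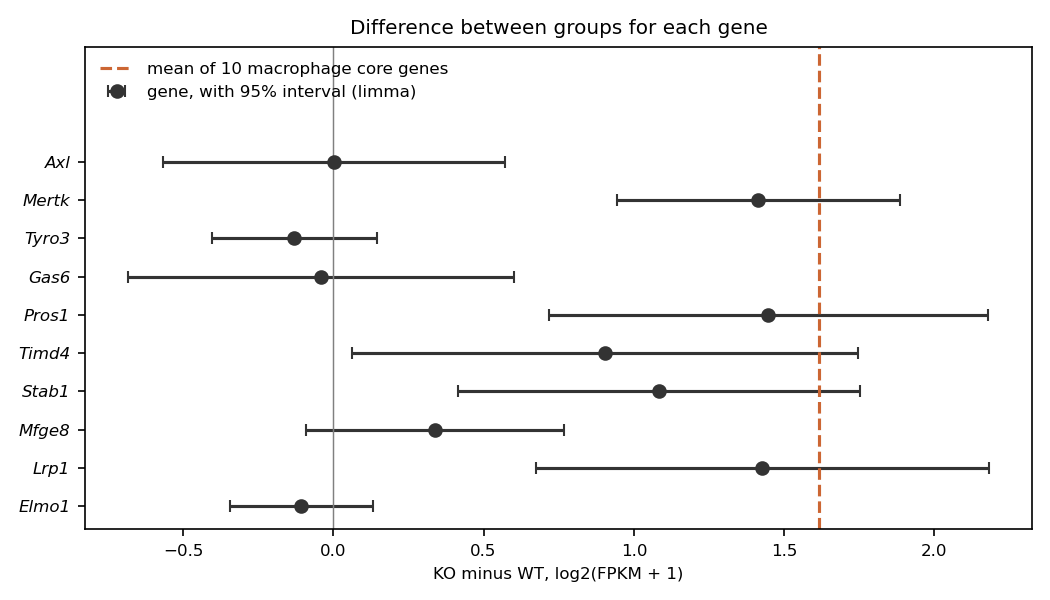
Difference between KO-labelled and WT-labelled libraries on the log2(FPKM + 1) scale (horizontal axis) for each of the 10 genes, with the 95% interval from limma. The dashed line is the difference of the mean of 10 macrophage core genes, 1.62: the intervals of Mertk, Pros1, Timd4, Stab1 and Lrp1 reach it, and those of the other 5 genes do not.

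Patterns over the 6 libraries were compared by the root mean square difference of log2(FPKM + 1), each gene centred on its own mean. Among the members, the nearest were Tyro3 and Elmo1 at 0.13, then Mertk and its ligand gene Pros1 at 0.20. Mertk and Lrp1 followed at 0.26, and Axl and Gas6 at 0.27. The added 1 FPKM flattens Tyro3, at 0.106 to 0.364 FPKM, and Gas6, at 0.319 to 1.71 FPKM. Their distances on this scale therefore do not show a shared pattern. Over all genes above the filter, the 5 nearest to Mertk were Tlr8, Dapk1, Csf2rb2, Nlrp3 and Tlr2, at 0.085 to 0.13. Tlr8 and Tlr2 are sensors of microbial products and Nlrp3 an inflammasome sensor, while Csf2rb2 has a near-identical neighbour, so its reads are uncertain. Tlr8 stood at 3.64 ± 1.42 and 12.03 ± 2.09 FPKM in WT-labelled and KO-labelled libraries (SD, n = 3). The 5 nearest to Axl were Kctd11, Ier5l, Aldh1a2, Sulf2 and Tmem184b, at 0.13 to 0.16. Aldh1a2, a retinoic acid synthesis enzyme, stood at 4.49, 2.83 and 2.06 FPKM in WT-labelled and 4.13, 2.96 and 2.83 FPKM in KO-labelled replicates 1 to 3.

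Of 88 other genes of apoptotic cell uptake, 77 were above the filter and none passed the test by limma or by voom, while 35 were higher and 5 lower at an unadjusted limma p under 0.05, beside 8.86% and 8.2% of all genes tested. Of the 77, 51 had positive and 26 negative differences, where 35.4% of all genes tested had a positive one. Every KO-labelled library lay above the WT-labelled ones for 35 and below for 10, beside 9.74% and 15.2% of all genes tested. The median was 0.25, beside -0.06 over all genes. The counts in the lower direction were thus near the background. These lists, like the members, were chosen with earlier results of these data known, so the counts are a description only. Edil3 and Gata6, with WT-labelled means of 0.620 and 0.982 FPKM, passed the filter through the KO-labelled libraries, as Timd4 did. Both count among the 35 above, a side that the filter favoured for them. Some of the 77 genes are macrophage markers themselves, such as Itgam, which also belongs to the macrophage core list. The macrophage core mean differed by 1.62 in the same direction, and its part in these counts was not tested.

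Other receptors of phosphatidylserine and oxidised lipid split in direction, 5 of 8 above and 1 below without overlap, with a median of 0.84. Over all genes tested, 9.74% lay above and 15.2% below without overlap. Cd300lb stood at 5.54 ± 2.28 and 17.2 ± 5.68 FPKM in WT-labelled and KO-labelled libraries (SD, n = 3), and its relative Cd300a at 4.79 ± 2.80 and 15.4 ± 7.45 FPKM. Scarb1, a lipoprotein receptor, stood at 3.98 ± 1.31 and 7.14 ± 0.705 FPKM. Stab2, Timd2, Adgrb1 and Havcr2 were under 1 FPKM in every library. Of bridging molecules and opsonins, all 10 above the filter had positive differences and 8 did not overlap, with a median of 1.60, the largest of the 9 lists. Edil3, a relative of Mfge8 that binds integrins, stood at 0.620 ± 0.186 and 2.64 ± 0.562 FPKM. Thbs1, thrombospondin, stood at 408 ± 161 and 1537 ± 168 FPKM, and Tgm2, a transglutaminase, at 27.6 ± 14.4 and 74.9 ± 13.2 FPKM. Mfge8 and Edil3 thus differed in size of difference, 0.34 against 1.16, although no test of that contrast was run.

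Integrins of engulfment had 5 of 6 above and 1 below without overlap, beside 9.74% and 15.2% of all genes tested, with a median of 0.59. Itgam stood at 103 ± 38.4 and 285 ± 49.6 FPKM, and Itgb5 at 6.81 ± 4.23 and 18.7 ± 3.65 FPKM (SD, n = 3). Itgb1 stood at 118 ± 19.2 and 169 ± 7.72 FPKM. The single one below was Itgb3, a partner of the alpha v chain, named after its values were seen, at 8.69 ± 0.923 and 6.40 ± 1.47 FPKM. Engulfment signalling, the group to which Elmo1 belongs, had 7 positive and 6 negative differences among 13, with a median of 0.02. Over all genes tested, 35.4% of differences were positive. Vav3, a Rac exchange factor, stood at 3.27 ± 0.349 and 4.87 ± 0.491 FPKM, Rhog at 121 ± 22.4 and 153 ± 18.8 FPKM and the kinase gene Ptk2 at 3.07 ± 0.491 and 3.74 ± 0.0750 FPKM. The signalling genes thus lay near the median of all genes, as Elmo1 did, and the surface receptors and bridging molecules further up.

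Signals that restrain uptake went both ways, 3 of 6 above and 2 below without overlap, with a median of 0.31. Sirpa, the macrophage receptor for CD47, stood at 27.6 ± 5.32 and 45.1 ± 5.02 FPKM (SD, n = 3). The inhibitory receptor genes Pilra, at 9.27 ± 6.13 and 30.5 ± 8.45 FPKM, and Lilrb4a, at 55.9 ± 17.8 and 125 ± 40.0 FPKM, lay on the same side. Of receptors for find-me signals, 3 of 5 were positive, beside 35.4% of all genes tested, with a median of 0.47. P2ry2 stood at 1.26 ± 0.867 and 3.69 ± 0.324 FPKM, P2ry6 at 2.50 ± 1.76 and 7.12 ± 1.11 FPKM, and Gpr132 at 43.8 ± 5.18 and 35.7 ± 5.61 FPKM. P2ry2 and P2ry6 sense nucleotides leaking from dying cells. Lipid scrambling and flipping, which put phosphatidylserine out or take it in, had a median of 0.04 over 6 genes. Ano6, a scramblase, stood at 15.5 ± 0.476 and 21.03 ± 1.17 FPKM, Atp11a, a flippase, at 1.78 ± 0.0435 and 2.38 ± 0.254 FPKM, and Xkr8, a caspase-activated scramblase, at 1.03 ± 0.0686 and 1.15 ± 0.194 FPKM.

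The list of proteases that shed TAM receptors and of factors that regulate them had 8 positive and 5 negative differences among 13, with a median of 0.11. Over all genes tested, 35.4% of differences were positive. Gata6, the factor that specifies resident peritoneal macrophages, stood at 0.982 ± 0.631 and 3.38 ± 0.964 FPKM (SD, n = 3). Rxra, the partner of LXR and PPAR receptors, stood at 3.63 ± 1.53 and 7.80 ± 2.15 FPKM. Of genes that process the engulfed cell, 7 of 10 were positive, beside the same share of all genes, with a median of 0.24. The cholesterol exporter gene Abca1 stood at 24.5 ± 7.59 and 43.4 ± 4.30 FPKM and the lysosomal membrane gene Lamp1 at 136 ± 28.5 and 213 ± 55.9 FPKM. Rubcn, needed for uptake coupled to LC3, lay on the other side at 29.4 ± 0.503 and 24.9 ± 2.93 FPKM.

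**Figure D4:**
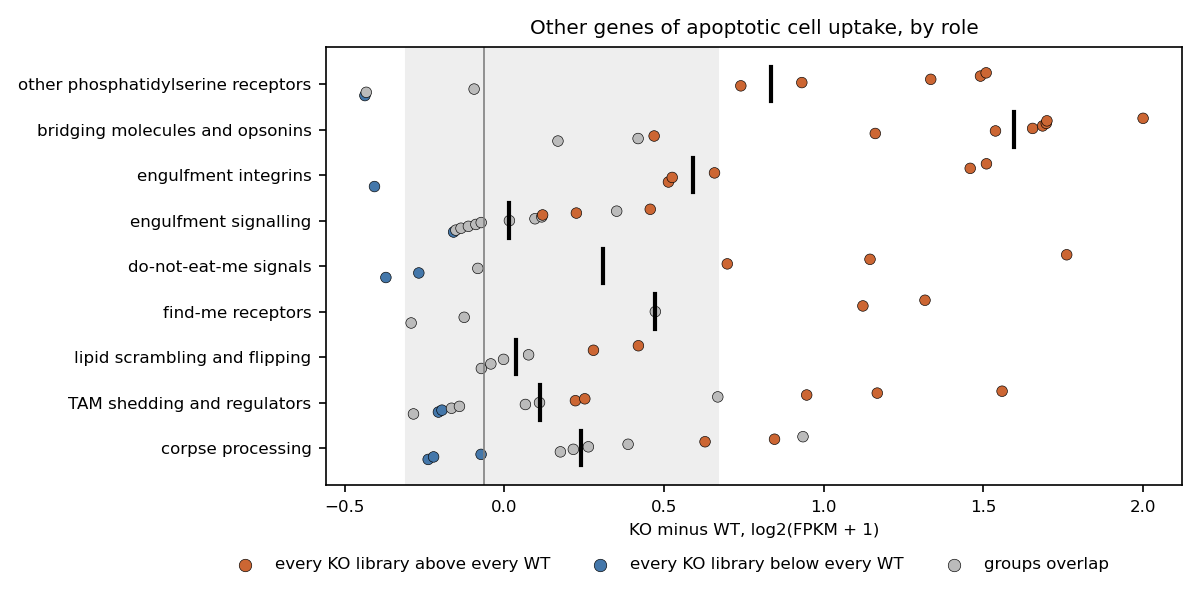
Difference between KO-labelled and WT-labelled libraries on the log2(FPKM + 1) scale (horizontal axis) for the 77 other uptake genes above the filter, in rows by role, coloured by whether the groups overlap, with the median of each list as a black bar. The grey band spans the middle 90% of all genes tested, -0.31 to 0.67, and the grey line their median: the bridging molecules lie furthest to the right, and the signalling genes inside the band.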

How the data were processed

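RNA-seq was measured in 6 libraries of mouse cells, grouped by title as WT or KO (3 each). RNA came from a TRIzol extraction and went into a VAHTS library kit, per the labels' protocols. The authors deposited FPKM per gene symbol, with mm10 as the build per the submitters' processing notes. Aligner, counter, annotation and strand setting were not given in the sources used here.

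The members and lists were chosen with earlier results of these data known. Whole reads were recovered from the FPKM steps, 100% of 19331 genes examined within 0.002 reads, so reads give each value's counting precision. Genes averaging 1 FPKM or more, and 2 members below that, were tested on log2(FPKM + 1) with limma 3.58.1 (R 4.3.3, trend) and Benjamini-Hochberg adjustment at 0.05, checked on simulated data. Ratios and differences from the macrophage mean used exact permutation tests over libraries, and the ratios were chosen after the data were seen. Named were all members, the 3 genes of each list with the largest moderated t, the 5 nearest patterns to Mertk and to Axl, the extreme macrophage core genes and defining markers near 0, although some genes under this rule are not reported here. Positions are GENCODE M21 on mm10 and promoters RefSeq, GRCm38.p6. Alternatives were other pseudocounts, filters, scalings, weights, a replicate block, a covariate, voom on reads and leaving out each library. No protein sequence was used here. No pair of libraries agreed within counting noise, so none was merged, which does not show separate cultures.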

Additional observations from a re-analysis of the deposited data

How the results depend on the processing

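Of all genes tested, 3 were higher and 0 lower in the KO-labelled libraries. The number higher was 5 with a pseudocount of 5, 0 without a filter, 0 with the macrophage mean as a covariate, 5 by voom on recovered reads, 544 with array weights (68 lower) and 11 with the replicate block, and it ranged from 0 to 500 (0 to 38 lower) when single libraries were left out, the highest without WT-labelled replicate 2. Voom also gave 0 lower, and 880 genes were lower at an unadjusted p under 0.05 in limma. The replicate numbers showed no common pairing: same-numbered deviations correlated at -0.21, -0.38 and 0.27, and only the libraries numbered 3 correlated best with their own number. Deviations from a mean of 3 are tied together within a group, so these correlations cannot exclude a pairing. With the replicate block, Mertk had a limma adjusted p = 0.047, the only member whose call the block changed.

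The Axl difference of 0.00 turned to -0.011 with a pseudocount of 5, -0.020 at a common total, -0.0055 under quantile normalization, -0.18 with array weights and -0.53 with the covariate, and ranged from -0.27 to 0.24 when single libraries were left out. Gas6 ranged from -0.33 to 0.19 in the same way. With the covariate, Timd4 turned to -0.20 and Mfge8 to -0.36. Relative to the macrophage mean, Mertk turned to 0.17 with a pseudocount of 0.1, and Lrp1 ranged from -0.36 to 0.061 when single libraries were left out. Mertk, Tyro3, Pros1, Stab1, Lrp1 and Elmo1 kept the sign of their own difference under all 18 alternatives. The Mertk to Axl and Pros1 to Gas6 differences kept theirs under all 10 alternatives run on them. The cause of these changes was not tested. Tyro3 and Gas6 rest on as few as 20 and 31 reads in a library, and the Gas6 libraries labelled KO spread further, from 31 to 170 reads.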
